A study of Mus musculus with 9 samples.

Results

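Oxidative phosphorylation genes are followed here in mouse germ cells on either side of the entry into meiosis, by the complex of the mitochondrial respiratory chain their products belong to and with the isoforms that replace them in testis and other tissues. Members were chosen by gene name (the subunit symbols beginning Nduf, Sdh, Uqcr, Cyc, Cox4 to Cox8 and Atp5) among the 24505 genes of the table, and had to reach at least 30 counts over all 9 libraries. Of 87 names that fit, 84 were kept. Cox8b and Cox6a2, isoforms of heart and muscle, had 1 count each and Ndufs5 had 0, whereas the least counted members, Cox4i2 and Atp5l, had 47 and 146. The 84 comprised 34 genes of complex I, 4 of complex II, 9 of complex III, 2 of cytochrome c, 18 of complex IV, 15 of complex V and 2 (Atp5s and Atp5sl) that carry the complex V prefix without being structural subunits. Ndufa4 and Ndufa4l2 were counted with complex IV, where their products are found.

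The 9 libraries fell into 3 groups of 3, all from cells sorted by EGFP that is expressed from the promoter of Uchl1, in Uchl1-eGfp mice outcrossed to CD-1. All of these mice received WIN18,446, an inhibitor of retinoic acid (RA) synthesis, at 100 µg per g body weight from postnatal day (P) 1, and a single injection of 10 µl of RA (10 µg/µl) at P11, so that their spermatogonia differentiated in synchrony. EGFP bright intermediate and type B spermatogonia (In/B) were taken at P17, and EGFP dim preleptotene (PL) spermatocytes at P19. In RA-sufficient mice WIN18,446 was not given after the RA injection, and in RA-deficient mice it was continued, so that the RA-deficient PL cells formed without newly made RA. Each preparation pooled the testes of several pups of a litter, and the In/B group serves as the earlier stage for both PL groups. The paper describes its In/B spermatogonia at P17 as RA-sufficient, and no In/B group had continued WIN18,446. In RA-deficient PL against In/B, the change of stage and the continued WIN18,446 therefore cannot be told apart. The questions were how transcripts of the respiratory chain differ between In/B spermatogonia and PL spermatocytes, and whether they differ between PL cells formed with and without RA.

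The respiratory chain passes electrons from NADH (complex I) and succinate (complex II) through ubiquinone to complex III, by cytochrome c to complex IV and on to oxygen, and the protons pumped on the way drive ATP synthesis by complex V. Nuclear genes encode most of its subunits, and the mitochondrial genome encodes a few core ones. Germ cells are known for exchanging some subunits for testis isoforms, among them cytochrome c (Cyct for Cycs) and the complex IV subunits Cox6b2, Cox7b2 and Cox8c.

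Levels are given as CPM, counts scaled to a common library size after adjustment by trimmed means of ratios (TMM). A gene passed the test where its adjusted p in edgeR was below 0.05, and was called where its absolute log2 fold change was also above 1. Libraries held 12612959 to 27042274 counts, and RA-deficient PL libraries had the fewest genes with a count (14769 to 15327, against 16758 to 18434 in the others). The summed level of 7 Sertoli cell markers (Clu, Inha, Cldn11, Wt1, Gata4, Sox9 and Amh) was 2772 to 3621 CPM in RA-sufficient PL, 66.2 to 334 in In/B and 290 to 512 in RA-deficient PL, with none of them at 0 in any group. Spermatogonial markers (Uchl1, Dmrt1, Kit, Dmrtb1 and Sohlh1) summed to 3539 to 5239 CPM in In/B and 702 to 799 in RA-sufficient PL, but to 2946, 3078 and 1226 in RA-deficient PL replicates 1, 2 and 3. RA-deficient replicates 1 and 2 thus lay nearer to In/B than to RA-sufficient PL in these markers, which goes against their PL label, and Kit stood at 569 and 528 CPM in them, above In/B (319 to 403 CPM), and at 20.7 CPM in replicate 3. Markers of PL and early prophase (Stra8, Rec8, Sycp3, Dmc1, Meiob and Prdm9) summed to 265 to 573 CPM in In/B. Their sums were 1710 to 2239 CPM in RA-sufficient PL and 2098 to 2378 in RA-deficient PL. Of these 6 genes, 4 passed as higher than In/B and 0 as lower in each PL group. In each, 1 gene had a negative log2 fold change (-0.92 in RA-sufficient and -1.32 in RA-deficient PL). Macrophage and blood markers summed to at most 13.6 CPM, with both hemoglobin genes of the list at 0 in every library, and Leydig markers to at most 38.2 CPM, with Insl3 at 0 in 8 of 9 libraries. Peritubular and stromal markers (Acta2, Myh11, Col1a1, Col1a2, Dcn and Pdgfra) summed to 59.0 to 84.0 CPM in In/B, 54.9 to 60.3 in RA-sufficient PL and 94.3 to 112 in RA-deficient PL. Between the PL groups 3 of these 6 had positive and 3 negative log2 fold changes, and 1 passed, as higher in RA-deficient PL. In bulk samples such as these, fewer cells of a type and less RNA per cell cannot be told apart.

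Transcripts of the respiratory chain made up a smaller share of the counts at the PL stage than at the In/B stage. The summed level of all 84 members was 7507, 8067 and 7292 CPM in In/B, 5027, 4403 and 5205 CPM in RA-sufficient PL, and 5155, 5448 and 4939 CPM in RA-deficient PL. All 3 In/B libraries lay above all 6 PL libraries, and the PL groups overlapped. Mean sums were 7622 ± 400.2 (SD, n = 3) in In/B, 4879 ± 421 in RA-sufficient PL and 5181 ± 255.5 in RA-deficient PL, so that the PL groups held 64.0% and 68.0% of the In/B level. Complex V stood at 52.6% of In/B in RA-sufficient and 60.7% in RA-deficient PL, complex IV at 64.3% and 54.6%, and complex I highest among the complexes, at 82.0% and 85.1%. Cytochrome c stood at 104% and 35.1% of In/B. No test was made on these sums. Without TMM scaling the RA-deficient level came to 59.7% of In/B in place of 68.0%.

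**Figure D1:**
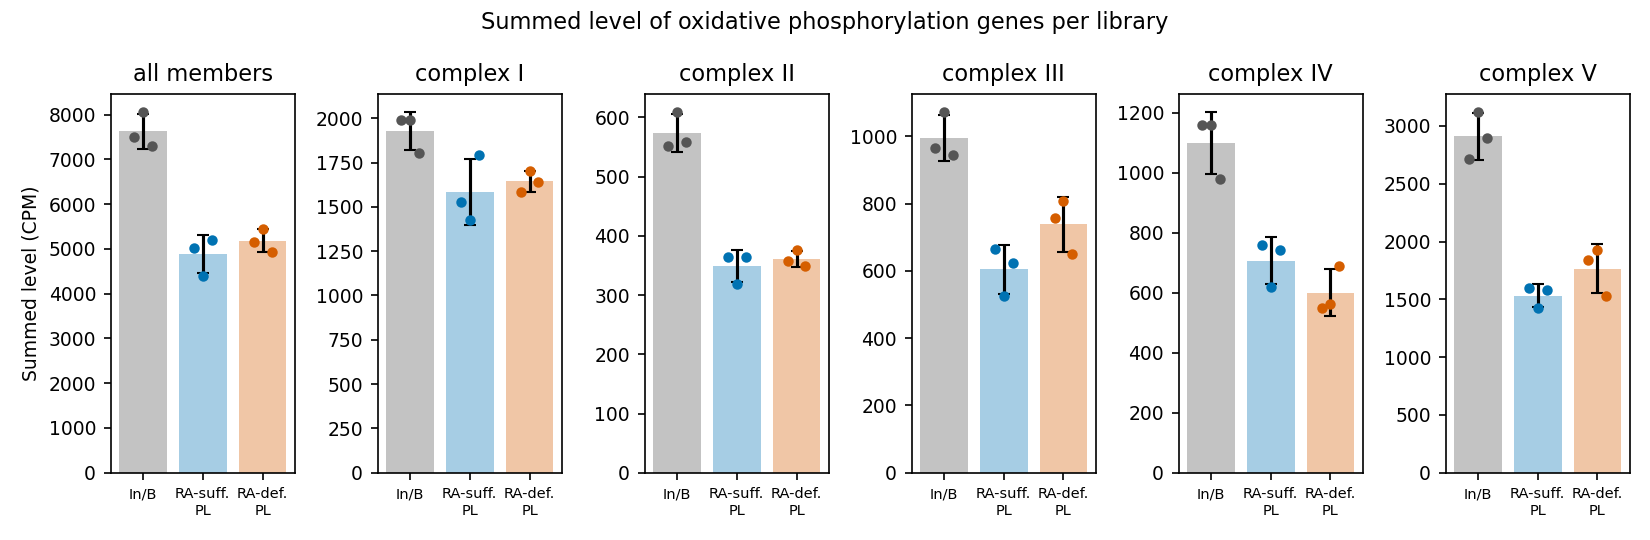
Summed CPM of all members and of the members of each complex (y axes, starting at 0 and scaled per panel) in In/B, RA-sufficient PL and RA-deficient PL. Points are libraries, bars are means and error bars are SD (n = 3), and in the first panel the In/B libraries (7292 to 8067 CPM) lie above every PL library (4403 to 5448 CPM).

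Counted gene by gene, 83 members could be tested (Cox4i2 was too low). In RA-sufficient PL against In/B, 41 members passed as lower (49.4%, against 31.2% of all 15001 genes tested) and 9 as higher (10.8%, against 33.8%), and 33 did not pass. Called by the fold threshold as well were 17 lower (20.5%, against 19.3%) and 5 higher (6.02%, against 26.1%), so that the share called lower was close to that of all genes. The median log2 fold change was -0.42 over members and 0.04 over all genes. In RA-deficient PL against In/B, 36 members passed as lower (43.4%, against 18.3% of 14877 genes), 6 as higher (7.23%, against 18.4%) and 41 did not pass. There, 21 were called lower (25.3%, against 11.8%) and 2 higher (2.41%, against 11.4%), with a median of -0.49 over members and 0.0038 over all genes. These comparisons share their In/B libraries, so values are set side by side here and are not independent of each other. Counts per complex and of isoforms below are to be read against these shares of all genes. Those passing as lower were 31.2% in RA-sufficient and 18.3% in RA-deficient PL.

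These counts depended unevenly on single libraries. The shares of all genes with a library left out are not given here. For RA-sufficient PL against In/B, the members passing as lower ranged from 32 to 41 and those passing as higher from 7 to 11 when each library was left out. For RA-deficient PL, the lower ones ranged from 20 (without In/B replicate 2) to 37 (without RA-deficient PL replicate 3). The higher ones came to 10 without RA-deficient PL replicate 3, to 3 without RA-deficient PL replicate 2 or In/B replicate 1, and to 2 without In/B replicate 2 or 3. With RA-deficient PL replicate 3 as the only library of its group, assumed to vary like the In/B libraries, 38 passed as lower and 12 as higher.

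**Figure D2:**
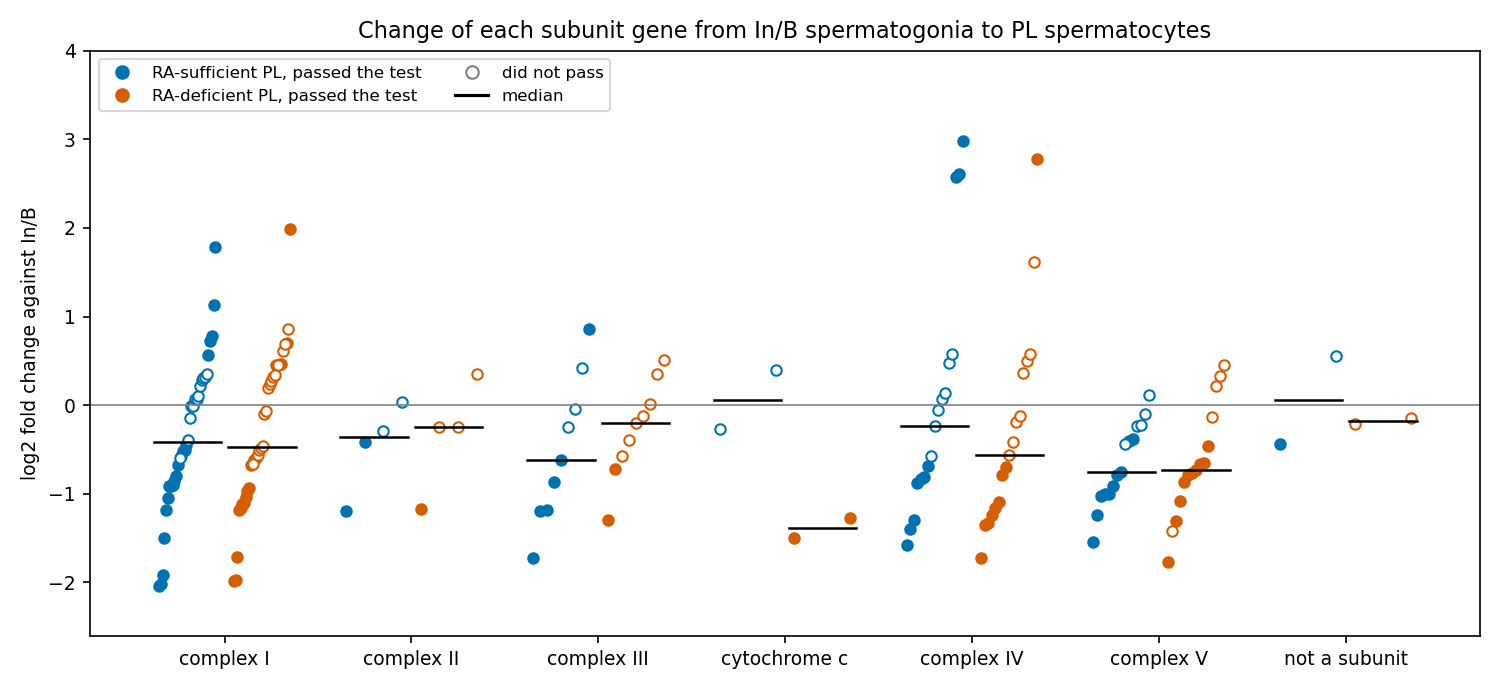
Fitted log2 fold change of each tested member against In/B (y axis) by complex (x axis), for RA-sufficient PL and RA-deficient PL. Filled points passed the test, open points did not, black lines are medians, and in complex V no member passed as higher in either PL group.

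Complex I, the NADH dehydrogenase, held genes that fell steeply and genes that rose. In RA-sufficient PL 16 of its 34 genes passed as lower and 5 as higher (Ndufa1, Ndufv3, Ndufc1, Ndufb11 and Ndufa10), and in RA-deficient PL 13 were lower and 5 higher (Ndufa1, Ndufv2, Ndufv1, Ndufs1 and Ndufa10). Ndufa10, Ndufc1 and Ndufv2 are named here after their values were seen. Ndufa10 did not pass in RA-deficient PL when any library except RA-deficient PL replicate 3 was left out (adjusted p = 0.0617 to 0.178). With scaling by library size only its value there was 0.14 (adjusted p = 0.478) in place of 0.46, and it also missed with no filter (0.0578) and when all 9 libraries shared a fit (0.0679). Ndufc1 did not pass in RA-sufficient PL without 4 of the 6 libraries, In/B replicates 2 and 3 and RA-sufficient PL replicates 1 and 3 (0.0547 to 0.103), or when all 9 shared a fit (0.061). Ndufs8, an iron-sulfur subunit that carries electrons toward ubiquinone (chr19:3908870-3912717, minus strand, mm9), measured 91.4, 78.6 and 79.5 CPM in In/B, 19.4, 19 and 20.2 CPM in RA-sufficient PL and 28.4, 22.9 and 18.3 CPM in RA-deficient PL. Every PL library lay below every In/B library by a wide margin, and the PL groups overlapped. It fell by 2.04 on the log2 scale (SE 0.14, 4.11-fold, adjusted p = 1.53e-05) in RA-sufficient and by 1.71 (SE 0.21, adjusted p = 0.000609) in RA-deficient PL. Ndufa11 and Ndufa13, membrane arm subunits, fell nearly as far, by 2.01 (SE 0.18, adjusted p = 3.47e-05) and 1.91 (SE 0.17, adjusted p = 3.25e-05) in RA-sufficient PL. Their log2 fold changes in RA-deficient PL were -1.98 (SE 0.20, adjusted p = 0.00031) and -1.97 (SE 0.19, adjusted p = 0.00023). Ndufa13 went from 117, 98.3 and 90.5 CPM in In/B to 19.6 to 30.3 CPM over the 6 PL libraries, with no overlap.

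Ndufa1, an X-linked subunit of the membrane arm (chrX:34727583-34731158), moved the other way. Its level was 46.6, 68.7 and 38.2 CPM in In/B, 125, 147 and 241 CPM in RA-sufficient PL and 126, 158 and 275 CPM in RA-deficient PL. Each PL library was above each In/B library, replicate 3 was the highest of both PL groups, and the PL groups overlapped. The rise was 1.79 on the log2 scale (SE 0.29, adjusted p = 0.000697) and 1.99 (SE 0.32, adjusted p = 0.00242). Per kilobase of annotated exon, Ndufa1 was the most abundant member in both PL groups. Its values were 408 ± 146 and 444 ± 188 CPM per kb (SD, n = 3). By that length Cox4i1 led in In/B, at 367 ± 31.1 CPM per kb. Atp5b, at 880 CPM in In/B, came to 208 CPM per kb on an exon length of 4237 bases. Its exons gave only 1842 distinct stretches of 75 bases, so that length is uncertain. The In/B order by another length was not tested. Besides Ndufa1, the X-linked members were Ndufb11 and Cox7b. Ndufb11 passed as higher in RA-sufficient PL (log2 fold change 0.73, adjusted p = 0.0450), a call that was lost when any of 5 libraries (all but In/B replicate 1) was left out, with library size only (0.0536), with no filter (0.0581) and in a fit of all 9 libraries (0.102). Its value in RA-deficient PL was 0.85 (adjusted p = 0.0841). Cox7b of complex IV fell in both, by 0.88 (adjusted p = 0.0167) and 1.24 (adjusted p = 0.0165), calls that were lost without In/B replicate 2 (adjusted p = 0.085 and 0.112), and in RA-deficient PL also without In/B replicate 3 (0.0503).

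The promoters of Ndufs8 and Ndufa1 are shown because these genes stood at opposite ends of complex I. Each line gives 170 bases before and 30 bases after the start in RefSeq (GRCm38.p6), on the gene's strand, and both sequences matched mm9 exactly and uniquely on their chromosome, at chr19:3912745-3912944 and chrX:34731204-34731403 (minus strand). Capitals mark the letters of 4 motifs on either strand: NRF1 (GCGCANGC), ETS as bound by GABPA (CCGGAAG), CRE (TGACGTCA) and the CCAAT box (CCAAT).
Ndufs8: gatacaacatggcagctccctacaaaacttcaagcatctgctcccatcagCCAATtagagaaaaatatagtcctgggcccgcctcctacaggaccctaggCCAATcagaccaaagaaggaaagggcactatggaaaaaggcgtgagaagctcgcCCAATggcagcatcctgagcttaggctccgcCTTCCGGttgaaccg
Ndufa1: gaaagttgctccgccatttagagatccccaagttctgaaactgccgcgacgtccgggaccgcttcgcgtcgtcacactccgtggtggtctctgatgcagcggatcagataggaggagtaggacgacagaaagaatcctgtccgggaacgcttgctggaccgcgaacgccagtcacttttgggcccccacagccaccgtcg
Ndufs8 held 1 ETS match and 3 CCAAT matches, and Ndufa1 held none of the 4. Of the 84 members, 66 had promoters in the RefSeq table, 71 promoters of 300 bases in all. NRF1 letters occurred in 24 of them (33.8%, against 9.95% of all 32851 promoters of that length) and ETS letters in 16 (22.5%, against 8.86%). NRF1 and GABPA are known as activators of nuclear genes for mitochondrial proteins. Among the 23 members with NRF1 letters, 15 passed as lower (65.2%) and 0 as higher in RA-sufficient PL (median log2 fold change -0.57), and among the 43 without them 17 were lower (39.5%) and 7 higher (median -0.24), beside 31.2% of all genes lower. In RA-deficient PL 11 of the 23 (47.8%) and 20 of the 43 (46.5%) passed as lower, beside 18.3% of all genes, and 0 and 4 as higher, with medians of -0.65 and -0.56. Members with and without NRF1 letters thus had nearly the same share of passing lower genes in RA-deficient PL. Directly between the PL groups, 1 of the 23 passed as higher and 1 as lower (median -0.08). Of the 43, 2 passed as higher and 4 as lower (median -0.21), beside 11% and 12.6% of all genes. Split by ETS letters, 10 of 16 members with them (62.5%) and 22 of 50 without (44%) passed as lower in RA-sufficient PL. In RA-deficient PL 9 of 16 (56.2%) and 22 of 50 (44%) did. Called lower by the fold threshold as well were 2 (12.5%) and 17 (34%) there, in the reverse order, beside 11.8% of all genes. In RA-sufficient PL 4 (25%) and 8 (16%) were, beside 19.3%. Split by NRF1 letters, 6 of 23 (26.1%) and 13 of 43 (30.2%) were called lower in RA-deficient PL. The split gave 7 (30.4%) and 5 (11.6%) in RA-sufficient PL. With ETS letters 0 passed as higher in either PL group, and without them 7 and 4 did. None of these differences was tested. A match is a run of letters in this window, and binding was not measured.

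The genes that make up complex I's structural modules did not all move together. The grouping was added after the values had been seen and was not tested. In the N module, which holds the NADH site, median log2 fold changes were 0.14 in RA-sufficient and 0.11 in RA-deficient PL. Ndufs1, its iron-sulfur subunit, measured 145, 169 and 164 CPM in In/B, 148, 190.0 and 198 CPM in RA-sufficient PL and 190, 205 and 205 CPM in RA-deficient PL. Its RA-deficient libraries were all above In/B, and its RA-sufficient ones overlapped In/B. The log2 fold change was 0.21 (adjusted p = 0.205) in RA-sufficient and 0.46 (SE 0.11, adjusted p = 0.0149) in RA-deficient PL. Ndufv1, which binds the flavin, gave 0.07 (adjusted p = 0.679) and 0.47 (adjusted p = 0.0369). Both rises in RA-deficient PL were lost with scaling by library size only (0.14 and 0.15, adjusted p = 0.353 and 0.464) and in a fit of all 9 libraries (adjusted p = 0.0713 and 0.126), and that of Ndufv1 with no filter (0.0514). Ndufs1 also lost its call without In/B replicate 2 or 3 or RA-deficient PL replicate 2 (0.0544 to 0.0594), and Ndufv1 without any library except RA-deficient PL replicate 3 (0.0682 to 0.139). Ndufs1 overlaps Gm11602 on the opposite strand. The Q module, which reduces ubiquinone, had medians of -0.51 and -0.61. The ND5 module at the tip of the membrane arm had medians of -0.92 and -0.97, with 4 of 5 and 3 of 5 genes passing as lower, and the ND2 module, to which Ndufa1 belongs, had 0.67 and 0.58.

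**Figure D3:**
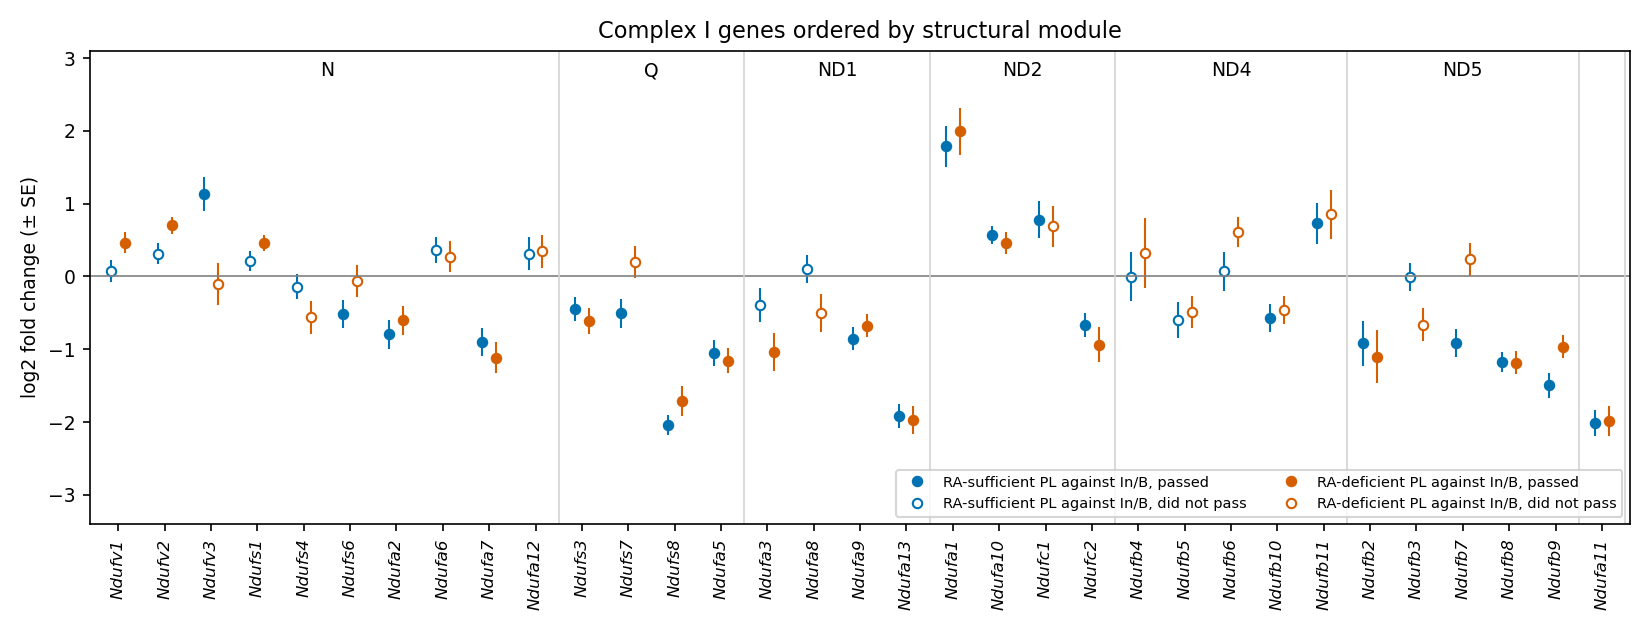
Fitted log2 fold change against In/B (y axis, bars are SE) of complex I genes (x axis), ordered by structural module, for RA-sufficient and RA-deficient PL. Filled points passed the test, Ndufs8, Ndufa13 and Ndufa11 lie near -2 and Ndufa1 lies near 2 in both.

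Complex II, the succinate dehydrogenase shared with the TCA cycle, has 4 genes. Of these, 2 passed as lower in RA-sufficient PL (Sdha and Sdhb, 50%, against 31.2% of all genes). In RA-deficient PL 1 did (Sdha, 25%, against 18.3%). Sdha, the flavoprotein that oxidizes succinate, measured 288, 317 and 315 CPM in In/B, 149, 117 and 124 CPM in RA-sufficient PL and 139, 132 and 102 CPM in RA-deficient PL. Its levels in all PL libraries were below In/B, and the PL groups overlapped. It fell by 1.2 (SE 0.12, adjusted p = 7.24e-05) and by 1.18 (SE 0.14, adjusted p = 0.000681) on the log2 scale. Sdhb, the iron-sulfur subunit, gave -0.42 (adjusted p = 0.0194), no longer passing without In/B replicate 2 (0.0753) or RA-sufficient PL replicate 2 (0.0801), and -0.25 (adjusted p = 0.253). The membrane anchor Sdhc gave 0.04 and 0.35 (adjusted p = 0.833 and 0.23).

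In complex III, which passes electrons from ubiquinol to cytochrome c, 5 of 9 genes passed as lower in RA-sufficient PL (55.6%, against 31.2% of all genes). There 1 (Uqcr10, 0.86, adjusted p = 0.00607, named after its value was seen) passed as higher. In RA-deficient PL 2 were lower (22.2%, close to the 18.3% of all genes) and 0 higher. Cyc1, the cytochrome c1 heme subunit, measured 190, 254 and 249 CPM in In/B, 68.7, 65.6 and 69.2 CPM in RA-sufficient PL and 113, 99.4 and 44.9 CPM in RA-deficient PL. All PL libraries lay below In/B, and within RA-deficient PL replicate 3 was the lowest. It fell by 1.72 (SE 0.14, adjusted p = 2.32e-05) in RA-sufficient and by 1.29 (SE 0.32, adjusted p = 0.0149) in RA-deficient PL, where the adjusted p rose to 0.0504 and 0.0527 without In/B replicate 2 or 3. Spermatogonial marker sums were also lowest in replicate 3 within RA-deficient PL, and their part in the Cyc1 values was not tested. Uqcrh, the hinge subunit, fell in both, by 0.86 (adjusted p = 0.00369) and 0.72 (adjusted p = 0.0184), in RA-deficient PL not without In/B replicate 1 or 2 or RA-deficient PL replicate 1 (adjusted p = 0.057 to 0.0772). Uqcrc1, a core protein, fell in RA-sufficient PL by 0.62 (adjusted p = 0.00247) and stood at 0.02 (adjusted p = 0.943) in RA-deficient PL. Uqcrb gave -1.18 (adjusted p = 0.000137) and -0.39 (adjusted p = 0.133), and 43.0% of its stretches of 75 bases also occur elsewhere in mm9, so its counts are uncertain. Uqcrfs1, the Rieske iron-sulfur protein, gave 0.42 and -0.12 (adjusted p = 0.0837 and 0.726). Between the PL groups, the differences for Uqcrc1 (0.51, adjusted p = 0.0719), Uqcrb (0.67, adjusted p = 0.066) and Uqcrfs1 (-0.66, adjusted p = 0.118) did not pass. Those of Uqcrc1 and Uqcrb passed in a fit of all 9 libraries (adjusted p = 0.0173 and 0.0146), by DESeq2 (0.0381 and 0.0234) and among genes with a mean of at least 50 counts (0.0437 and 0.0447).

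Among the 17 tested genes of complex IV, cytochrome c oxidase, 7 passed as lower in RA-sufficient PL and 8 in RA-deficient PL. Those that passed as higher were isoforms that replace other subunits, namely Cox7a1, Cox8c and Ndufa4l2 in RA-sufficient PL and Ndufa4l2 alone in RA-deficient PL. Cox4i1, which binds the core and holds a regulatory site for ATP, measured 271, 248 and 229 CPM in In/B, 88.5, 80.7 and 73.5 CPM in RA-sufficient PL and 98.0, 93.6 and 76.1 CPM in RA-deficient PL. All PL libraries were below In/B, and it fell by 1.58 (SE 0.12, adjusted p = 2.24e-05) and 1.35 (SE 0.14, adjusted p = 0.000348). Cox6a1 fell by 1.40 (adjusted p = 8.81e-05) and 0.78 (adjusted p = 0.00546). Cox6b1, which faces cytochrome c, fell by 1.30 (adjusted p = 0.00023) and 1.73 (adjusted p = 0.000414). Cox5a, a subunit on the matrix side, was at 0.13 and 0.37 (adjusted p = 0.527 and 0.239). Cox4i2, the lung isoform, was at most 0.974 CPM in any library.

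Complex V, the ATP synthase, had 10 of 15 genes passing as lower and 0 as higher in each PL group. Atp5a1 and Atp5b, the catalytic head subunits, together made up 15.4% to 23.2% of the members' summed level in the 9 libraries. Atp5a1 measured 733, 855 and 738 CPM in In/B, 340.1, 295 and 317 CPM in RA-sufficient PL and 458, 468 and 308 CPM in RA-deficient PL. In/B libraries were the highest throughout, and replicate 3 of RA-deficient PL lay within the RA-sufficient range while its other replicates lay above it. The falls were 1.24 (SE 0.11, adjusted p = 3.87e-05) and 0.78 (SE 0.17, adjusted p = 0.00856) on the log2 scale. Within RA-deficient PL, spermatogonial marker sums were also lowest in replicate 3, and their part in the Atp5a1 values was not tested. Atp5b fell by 0.78 (SE 0.11, adjusted p = 0.000416) and 0.47 (SE 0.14, adjusted p = 0.0347), the latter not without In/B replicate 2 (0.106), In/B replicate 3 (0.13) or RA-deficient PL replicate 1 (0.0598). Atp5c1, the central stalk subunit that turns inside the head, went from 250.4, 295 and 289 CPM in In/B to 113, 82.1 and 83.2 CPM in RA-sufficient PL and 76.7, 82.7 and 64.8 CPM in RA-deficient PL. Its falls, 1.54 (SE 0.15, adjusted p = 5.79e-05) and 1.76 (SE 0.14, adjusted p = 0.000115), were the steepest of the complex in each comparison among genes that passed. Atp5o, the stalk subunit that confers sensitivity to oligomycin, fell by 1.01 (adjusted p = 0.000258) and 1.08 (adjusted p = 0.000951).

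Tissue isoforms differed in direction. Of the 6 that could be tested (Cyct, Cox6b2, Cox7b2, Cox8c, Cox7a1 and Ndufa4l2), 3 passed as higher and 0 as lower in RA-sufficient PL, and 1 as higher and 2 as lower in RA-deficient PL. The mean share of an isoform in its pair, per length of exon, was above that of In/B in both PL groups for each of them except Cyct. In RA-deficient PL the ranges of Cox6b2, Cox7b2 and Cox8c overlapped those of In/B, and these shares were not tested. Cyct, the testis cytochrome c (chr2:76191999-76198507, minus strand), measured 28.1, 19.5 and 20.6 CPM in In/B, 33.4, 10.8 and 10.8 CPM in RA-sufficient PL and 5.97, 4.90 and 11.2 CPM in RA-deficient PL. RA-sufficient replicate 1 stood above all In/B libraries and the other pair below them, whereas all RA-deficient libraries were below In/B. The fold change in RA-sufficient PL was -0.27 (SE 0.43, adjusted p = 0.605), and -1.03 (adjusted p = 0.00674) without replicate 1 of that group. In RA-deficient PL Cyct fell by 1.5 (SE 0.37, adjusted p = 0.015), with an adjusted p of 0.0612 without In/B replicate 1. Its general partner Cycs (chr6:50512562-50516537, minus strand), which carries electrons and also triggers apoptosis once in the cytosol, measured 22.8, 21.9 and 22.9 CPM in In/B, 28.4, 25.5 and 32.4 CPM in RA-sufficient PL and 6.13, 8.75 and 10.7 CPM in RA-deficient PL. None of the 3 groups overlapped another. Cycs fell by 1.28 (SE 0.28, adjusted p = 0.00884) in RA-deficient PL and stood at 0.40 (adjusted p = 0.0698) in RA-sufficient PL. Of its 75-base stretches, 36.2% also occur elsewhere in mm9, so its counts and the shares of the pair are uncertain. Per length of exon, Cyct made up 83.7% ± 2.43 of the pair in In/B, 72.7% ± 11.8 in RA-sufficient PL and 80.8% ± 5.56 in RA-deficient PL (SD, n = 3), ranges that overlapped.

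Cox6b2 and Cox8c are the testis forms of Cox6b1 and Cox8a. Cox6b2 measured 18.6, 30.7 and 29.1 CPM in In/B, 43.3, 19.3 and 17.4 CPM in RA-sufficient PL and 8.24, 5.78 and 14.5 CPM in RA-deficient PL. RA-sufficient PL overlapped In/B, and RA-deficient PL lay below both. It fell by 1.33 (SE 0.38, adjusted p = 0.0264) in RA-deficient PL, a call lost without In/B replicate 2 or 3 or RA-deficient PL replicate 1 or 2 (adjusted p = 0.0589 to 0.0982), and was at 0.07 (adjusted p = 0.877) in RA-sufficient PL. Because Cox6b1 fell too, Cox6b2 per length was 17.3% ± 5.36 of the pair in In/B, 33.7% ± 14.0 in RA-sufficient and 21.4% ± 9.73 in RA-deficient PL. Cox8c (chr12:104137516-104138744) measured 12.2, 15.1 and 8.82 CPM in In/B, 121, 43.0 and 46.7 CPM in RA-sufficient PL and 2.56, 2.69 and 44.4 CPM in RA-deficient PL. All RA-sufficient libraries were above In/B, while RA-deficient replicates 1 and 2 were below it and replicate 3 within the RA-sufficient range. In RA-sufficient PL it rose by 2.58 (SE 0.42, adjusted p = 0.000728), which became 2.54 (adjusted p = 0.052) when all 9 libraries shared a fit. In RA-deficient PL the value was 0.58 (SE 1.00, adjusted p = 0.699), and it became -2.06 (adjusted p = 0.00253) without replicate 3. Per length it made up 25.0% ± 5.97 of its pair with Cox8a in In/B, 70.0% ± 13.5 in RA-sufficient PL and 27.2% ± 25.8 in RA-deficient PL. Markers of pachytene spermatocytes and spermatids ran in the same order, with sums of 1.73 to 4.42 CPM in In/B, 79.0, 45.2 and 34.0 CPM in RA-sufficient PL and 0.893, 2.41 and 24.4 CPM in RA-deficient PL replicates 1 to 3 (Pgk2 and Acr, with the remaining 5 genes at most at 1.81 CPM in any library), and their part in the Cox8c values was not tested.

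The promoters of both cytochrome c genes and of the Cox6b pair are shown so that the forms can be compared, written as for Ndufs8. They lie at chr6:50516539-50516738 (Cycs), chr2:76198481-76198680 (Cyct), chr7:31411104-31411303 (Cox6b1) and chr7:4704667-4704866 (Cox6b2), all on the minus strand.
Cycs: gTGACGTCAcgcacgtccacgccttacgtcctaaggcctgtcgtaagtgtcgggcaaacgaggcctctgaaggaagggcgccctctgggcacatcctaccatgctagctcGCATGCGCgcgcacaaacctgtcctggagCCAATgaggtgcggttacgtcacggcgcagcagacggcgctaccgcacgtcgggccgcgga
Cyct: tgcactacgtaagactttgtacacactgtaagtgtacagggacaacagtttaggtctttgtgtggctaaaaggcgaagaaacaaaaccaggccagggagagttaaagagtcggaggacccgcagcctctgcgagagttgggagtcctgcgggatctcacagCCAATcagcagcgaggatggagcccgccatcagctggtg
Cox6b1: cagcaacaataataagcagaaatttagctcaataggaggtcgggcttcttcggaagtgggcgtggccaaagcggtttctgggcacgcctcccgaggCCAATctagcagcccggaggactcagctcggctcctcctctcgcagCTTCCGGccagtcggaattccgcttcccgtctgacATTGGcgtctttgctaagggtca
Cox6b2: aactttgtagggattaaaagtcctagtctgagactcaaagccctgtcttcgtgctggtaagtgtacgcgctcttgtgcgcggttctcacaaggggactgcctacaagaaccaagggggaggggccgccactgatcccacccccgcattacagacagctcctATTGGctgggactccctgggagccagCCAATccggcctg
The general forms held NRF1 and CRE letters (Cycs) or ETS letters (Cox6b1) beside CCAAT boxes, and the testis forms of these pairs held CCAAT boxes only. The Cox7b pair differed from them, since in the same window the general form Cox7b and the testis form Cox7b2 both held CCAAT boxes only. CRE letters occurred in 5 of the 71 member promoters (7.04%, against 1.79% of all) and the CCAAT box in 32 (45.1%, against 37.4%). Also counted, though not marked above, were SP1 letters (GGGCGG), in 28 (39.4%, against 35.7%), and the TATA box (TATAAA), in 7 (9.86%, against 13.6%). In promoters of 300 bases from these pairs, SP1 letters occurred in Cycs, Cox6b2 and Cox7b2, and the TATA box in Cox7b2.

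Of the remaining isoforms, Cox7b2 of testis was at 0.58 (adjusted p = 0.0586) and -0.18 (adjusted p = 0.766), while its partner Cox7b fell as given above. Cox7b2 made up 80.6% ± 3.8 of that pair per length in In/B, 91.3% ± 2.87 in RA-sufficient and 87.3% ± 7.27 in RA-deficient PL. Cox7a1, the heart and muscle form of Cox7a2, measured 1.51, 1.40 and 0.955 CPM in In/B, 11, 5.84 and 6.17 CPM in RA-sufficient PL and 3.49, 4.21 and 3.12 CPM in RA-deficient PL. The 3 groups did not overlap, and RA-sufficient PL was the highest. It rose by 2.60 (SE 0.39, adjusted p = 0.000509) in RA-sufficient PL and gave 1.61 (SE 0.55, adjusted p = 0.0506) in RA-deficient PL, where it passed in a fit of all 9 libraries (0.0211), by DESeq2 (0.0126) and at a mean of at least 50 counts (0.0259). Per length it made up 2.83% ± 0.628 of its pair in In/B, 17.5% ± 6.70 in RA-sufficient PL and 17% ± 3.69 in RA-deficient PL. Ndufa4l2, the hypoxia-induced form of Ndufa4, was low throughout, at 0.169 to 0.774 CPM in In/B, 3.43 to 5.67 CPM in RA-sufficient and 2.88 to 3.89 CPM in RA-deficient PL. Its rises were 2.98 (SE 0.56, adjusted p = 0.00154) and 2.78 (SE 0.75, adjusted p = 0.0214), the latter lost without any In/B library (adjusted p = 0.0547 to 0.0698), and the gene overlaps Shmt2 on the opposite strand. Ndufa4 fell by 0.83 (adjusted p = 0.0034) and 1.10 (adjusted p = 0.00732). Cox8a was at -0.57 (adjusted p = 0.13) and -0.56 (adjusted p = 0.278). Sertoli markers were at their highest in RA-sufficient PL, as Cox7a1 was, and their part in its rise was not tested.

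**Figure D4:**
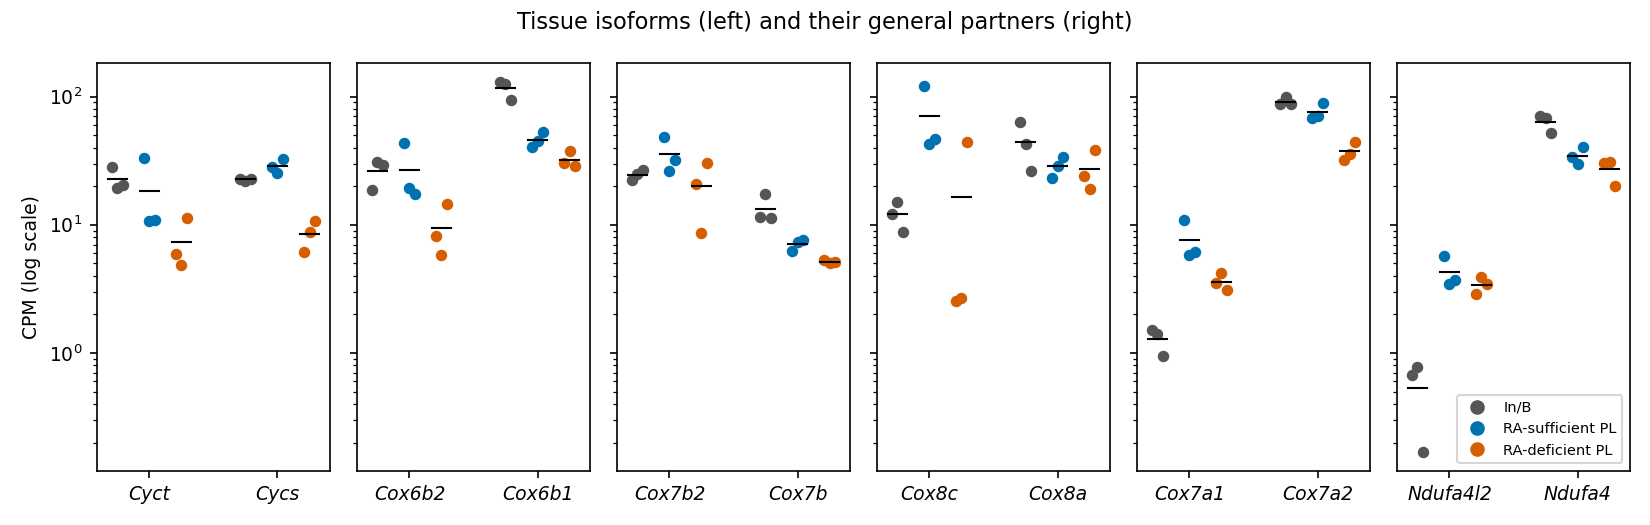
CPM per library (y axis, log scale) of 6 tissue isoforms and their general partners in In/B, RA-sufficient PL and RA-deficient PL. Points are libraries and lines are means (n = 3), and Cox8c in RA-deficient PL spans 2.56 to 44.4 CPM.

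Set directly against each other, the PL groups differed in few of these genes. Of 83 members tested, 3 passed as higher in RA-deficient PL (3.61%, against 11% of all 15352 genes), 5 as lower (6.02%, against 12.6%) and 75 did not pass. Called were 2 higher (2.41%, against 4.47%) and 3 lower (3.61%, against 11%), and the median log2 fold change was -0.09 over members and over all genes. With all 6 libraries, these shares were below the background in either direction. The higher genes were Atp5d, Ndufb7 and Uqcr11, and the lower ones Cycs, Ndufv3, Cox7a2, Ndufb3 and Atp5e, of which Ndufb3 is named after its value was seen. Without RA-deficient PL replicate 3, 11 members passed as higher and 12 as lower. The shares of all genes with a library left out are not given here, so these counts cannot be placed above or below them. Leaving out any other library gave 1 or 2 higher and 2 or 3 lower. With RA-deficient PL replicate 3 alone, 0 were higher and 3 (Cycs, Ndufa8 and Ndufb3) lower, and DESeq2 gave 7 and 10.

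Cycs differed most among them, by -1.79 on the log2 scale (SE 0.29, 3.45-fold, adjusted p = 0.0062), on the values given above, and it was lower in 3 of 3 RA-deficient libraries. Its adjusted p ranged from 1.27e-07 to 0.0337 over all alternatives, and it still passed with RA-deficient PL replicate 3 alone (-1.46, adjusted p = 0.0226). Atp5d, the delta subunit of the ATP synthase stalk (chr10:79601377-79608563), measured 162, 163 and 148 CPM in In/B, 80.1, 63.3 and 86.3 CPM in RA-sufficient PL and 193, 178 and 130.0 CPM in RA-deficient PL. RA-deficient PL overlapped In/B, and RA-sufficient PL lay below both. The difference between PL groups was 1.09 (SE 0.20, adjusted p = 0.00922), and 0.73 (adjusted p = 0.0649) with RA-deficient PL replicate 3 alone. The gene overlaps Dos on the opposite strand. Ndufb7 (22.3, 16.2 and 20 CPM in RA-sufficient, 31.2, 51.3 and 39.4 CPM in RA-deficient PL) and Uqcr11 (21.6, 28.6 and 37.5 against 52.1, 65.1 and 46.6 CPM) had the same order, with differences of 1.02 (adjusted p = 0.0306) and 0.88 (adjusted p = 0.0383). Neither pair of groups overlapped. Spermatogonial marker sums were also higher in RA-deficient than in RA-sufficient PL, and their part in the values of Atp5d, Ndufb7 and Uqcr11 was not tested.

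Among the lower genes, Cox7a2, a complex IV subunit, measured 67.6, 70.0 and 88.3 CPM in RA-sufficient PL and 32.0, 35.6 and 44.2 CPM in RA-deficient PL, beside 87.1 to 99.4 CPM in In/B. RA-deficient PL was below both other groups without overlap, by 1.05 against RA-sufficient PL (SE 0.19, adjusted p = 0.00885). Ndufv3, an accessory subunit of the NADH-binding part, measured 13.2, 16.3 and 19.4 CPM in In/B, 43.2, 27.3 and 33.7 CPM in RA-sufficient PL and 12.2, 11.6 and 17.8 CPM in RA-deficient PL. Only RA-sufficient PL stood apart, higher than both others. It rose by 1.14 (SE 0.23, adjusted p = 0.00258) against In/B, and the PL groups differed by -1.36 (SE 0.29, adjusted p = 0.0168). Ndufb3 and Atp5e differed by -0.77 (adjusted p = 0.0383) and -0.64 (adjusted p = 0.0479). Sertoli marker sums separated the PL groups in the same direction as Cycs, Cox7a2 and Ndufv3, and their part in these differences was not tested.

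Calls between the PL groups rested on single libraries in 5 of the 8 genes. Ndufv3 lost its call without RA-sufficient PL replicate 1 or 3 or RA-deficient PL replicate 1 or 2 (adjusted p = 0.052 to 0.0571), Ndufb7 without any RA-sufficient PL library or RA-deficient PL replicate 2 (0.0557 to 0.118), and Uqcr11 and Atp5e without any library except RA-deficient PL replicate 3 (0.053 to 0.132 and 0.0811 to 0.179). Ndufb3 also lost it without any library except RA-deficient PL replicate 3 (0.0724 to 0.139). Ndufb7 and Uqcr11 also lost it with library size only (0.0569 and 0.0895), and Atp5e and Ndufb3 with no filter (0.0613 and 0.0501). Cycs, Atp5d and Cox7a2 passed under each library left out.

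**Figure D5:**
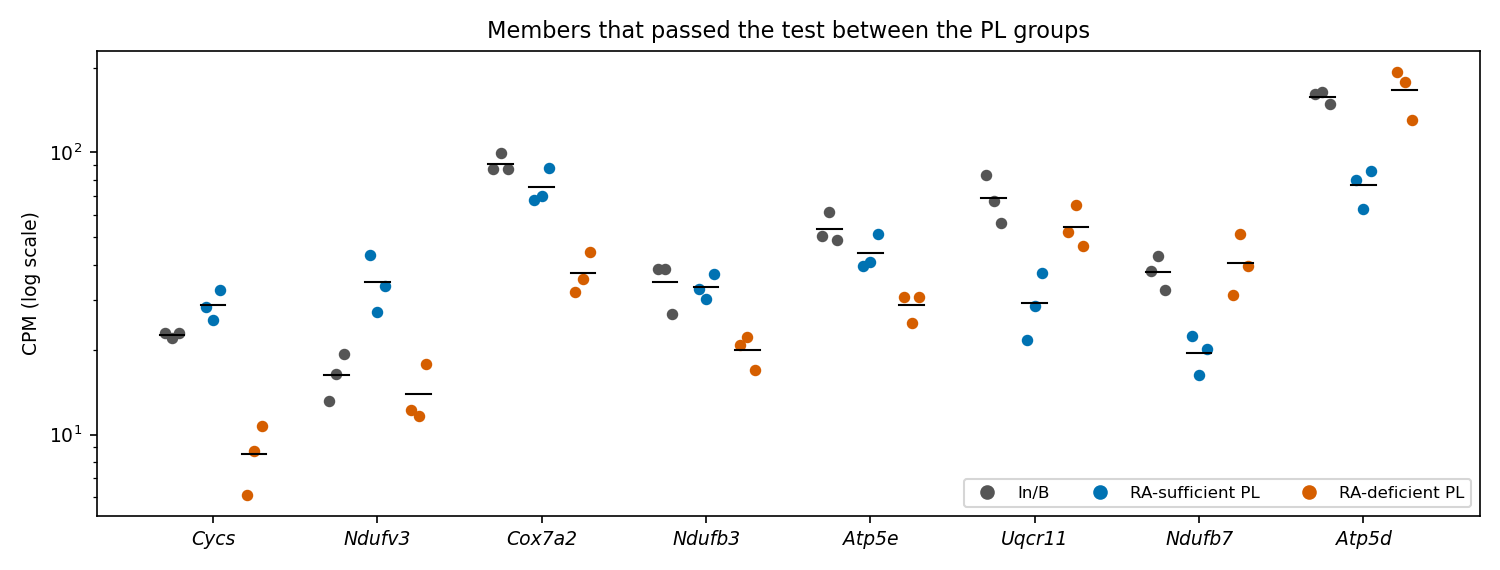
CPM per library (y axis, log scale) of the 8 members that passed between the PL groups, ordered from the lowest to the highest log2 fold change in RA-deficient PL. Points are libraries and lines are means (n = 3), and for Atp5d the RA-deficient libraries (130.0 to 193 CPM) lie beside In/B and above RA-sufficient PL.

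Further genes of the pathway were counted in the same way. Their counts are to be read against the shares of all genes tested, of which 33.8% passed as higher and 31.2% as lower in RA-sufficient PL, 18.4% and 18.3% in RA-deficient PL, and 11% and 12.6% between the PL groups. None of the 13 mitochondrially encoded subunits was in the table, and they were not analysed here. Of 19 genes of pyruvate dehydrogenase and the TCA cycle, 6 passed as higher (31.6%) and 9 as lower (47.4%) in RA-sufficient PL, and 2 and 2 (10.5% each) in RA-deficient PL. The share of higher genes in RA-sufficient PL was close to that of all genes, and both shares in RA-deficient PL were below it. Mdh2, the mitochondrial malate dehydrogenase, fell from 449, 299 and 309.8 CPM in In/B to 71.6 to 92.4 CPM in RA-sufficient and 88.5 to 117 CPM in RA-deficient PL (log2 fold change -2.03 and -1.59, adjusted p = 4.4e-05 and 0.000759). Cs, citrate synthase, rose by 0.37 (adjusted p = 0.0089) and 0.71 (adjusted p = 0.000811). Pdha2, the testis form of the pyruvate dehydrogenase subunit, rose by 1.73 (adjusted p = 0.000837) and 1.16 (adjusted p = 0.0263), the latter not when any In/B library was left out (adjusted p = 0.0662 to 0.0901) or with library size only (0.0723), while its X-linked partner Pdha1 gave 0.01 and -0.02 (adjusted p = 0.964 and 0.957). Pdhb fell by 1.02 and 0.86 (adjusted p = 0.000239 and 0.0036). Suclg1, of succinyl-CoA ligase, rose by 1.16 in RA-sufficient PL (adjusted p = 0.000502), stood at -0.04 in RA-deficient PL (adjusted p = 0.886), and was lower in RA-deficient than in RA-sufficient PL (-1.33, adjusted p = 0.00574).

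The carriers that exchange ATP, ADP and phosphate split by isoform. Slc25a4 measured 12.4, 13.1 and 10.5 CPM in In/B, 95.6, 75.7 and 78.0 CPM in RA-sufficient PL and 14.9, 8.71 and 16.0 CPM in RA-deficient PL. RA-sufficient PL stood far above the other groups, which overlapped. It rose by 2.83 (adjusted p = 1.1e-05) in RA-sufficient PL, and the PL groups differed by -2.70 (adjusted p = 0.0014). Slc25a5 followed it, with 2.39 (adjusted p = 4.59e-05) and -1.80 (adjusted p = 0.0125). The testis form Slc25a31 measured 164, 188 and 199 CPM in In/B, 158, 158 and 181 CPM in RA-sufficient PL and 227, 245 and 229 CPM in RA-deficient PL, and was higher in RA-deficient PL than in either (0.48, adjusted p = 0.015, and 0.46, adjusted p = 0.0196). The difference from In/B was lost without In/B replicate 2 or RA-deficient PL replicate 2 (0.0697 and 0.0636), and that between the PL groups without any library except RA-deficient PL replicate 3 (0.0526 to 0.0943). With library size only these differences were 0.16 (adjusted p = 0.306) and 0.28 (adjusted p = 0.102), and neither passed. The phosphate carrier Slc25a3 fell in both PL groups, by 1.18 (adjusted p = 9.18e-05) and 0.85 (adjusted p = 0.00177). Slc25a4 and Slc25a5 were high in the libraries where Sertoli markers were high, and the part of those markers was not tested.

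Regulators of mitochondrial genes were counted next. In RA-sufficient PL 9 of 16 tested genes passed as lower (56.2%, against 31.2% of all genes) and 1 as higher (6.25%, against 33.8%). In RA-deficient PL 3 of 18 were lower and 3 higher (16.7% each), close to the shares of all genes (18.3% and 18.4%). Between the PL groups 4 of 16 (Pprc1, Nrf1, Gabpb1 and Gabpb2) were higher in RA-deficient PL (25%, against 11%) and 0 lower. Pprc1, a coactivator of nuclear respiratory factors, measured 629, 478 and 525 CPM in In/B, 169, 218 and 188 CPM in RA-sufficient PL and 547, 542 and 389 CPM in RA-deficient PL. Only RA-sufficient PL stood apart, lower than both others, by 1.46 against In/B (adjusted p = 7.14e-05), and the PL groups differed by 1.33 (adjusted p = 0.00278). Nrf1, the gene of the factor whose motif is given above (101, 139 and 129 CPM in In/B, 61.1, 61.9 and 66.2 CPM in RA-sufficient PL, 114, 105.0 and 94.7 CPM in RA-deficient PL), had the same order, with RA-sufficient PL below the other groups, which overlapped. It fell by 0.92 in RA-sufficient PL (adjusted p = 0.000571), and the PL groups differed by 0.70 (adjusted p = 0.0118), a call lost without RA-sufficient PL replicate 2 or 3 (0.0624 and 0.0508). Spermatogonial marker sums were also lowest in RA-sufficient PL, and their part in the values of these regulators was not tested. Gabpb1, the partner of GABPA, fell by 1.13 (adjusted p = 8.56e-05) and 0.51 (adjusted p = 0.0179), the latter not without In/B replicate 3 (0.0876). Gabpb1 and Gabpb2 were higher in RA-deficient than RA-sufficient PL by 0.50 (adjusted p = 0.044) and 0.56 (adjusted p = 0.0103), Gabpb1 not without any library except RA-deficient PL replicate 3 (0.0541 to 0.165), with library size only (0.148) or with no filter (0.0656). Gabpb2 was also higher in RA-deficient PL than in In/B (0.45, adjusted p = 0.0242), a call lost without In/B replicate 2 or 3 or RA-deficient PL replicate 1 or 2 (0.0568 to 0.0697), in a fit of all 9 libraries (0.0727) and with library size only, where it was 0.14 (0.417). Tfb1m, which methylates mitochondrial ribosomal RNA, rose in both, by 1.56 (adjusted p = 0.000174) and 1.55 (adjusted p = 0.00164). Tfam, which packages mitochondrial DNA, gave -0.22 and -0.21 (adjusted p = 0.361 and 0.416). Esrrg, counted among the 3 lower in RA-deficient PL, had 0 counts in all RA-deficient libraries, which allows up to 0.134 CPM in a library, and 0.553 to 1.40 CPM in In/B, and Ppargc1a was at most 1.92 CPM in any library.

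Assembly factors moved in both directions. For complex I, 4 of 16 passed as higher (25%, against 33.8% of all genes) and 7 as lower (43.8%, against 31.2%) in RA-sufficient PL. In RA-deficient PL 2 (12.5%, against 18.4%) and 6 (37.5%, against 18.3%) did. Foxred1 rose by 1.57 (adjusted p = 0.000118) and 1.61 (adjusted p = 0.000162), Ecsit by 0.76 (adjusted p = 0.000663) and 1.30 (adjusted p = 0.000405), and Ndufaf4 fell by 1.76 in each (adjusted p = 0.000267 and 0.000941). Acad9 fell by 1.16 (adjusted p = 0.000324) in RA-sufficient PL, and Ndufaf7 by 0.76 (adjusted p = 0.0105) in RA-deficient PL, the latter not without In/B replicate 3 (0.0613). For complexes II and III 0 of 10 were higher, and 2 (20%) and 3 (30%) were lower in RA-sufficient and RA-deficient PL. Uqcc2 fell by 0.79 (adjusted p = 0.00629) and 1.09 (adjusted p = 0.00356), Ttc19 in RA-sufficient PL by 0.67 (adjusted p = 0.00157), and Uqcc1 in RA-deficient PL by 0.98 (adjusted p = 0.0165), not without In/B replicate 1 or 2 (0.0548 and 0.074). For complex IV 5 of 19 were higher (26.3%) and 8 lower (42.1%) in RA-sufficient PL, and 2 (10.5%) and 6 (31.6%) in RA-deficient PL. Cox10, which makes a precursor of heme A, rose by 0.60 (adjusted p = 0.0126) and 1.17 (adjusted p = 0.00156), and Cox15, which acts on the same heme, rose by 0.74 (adjusted p = 0.00172) and 0.81 (adjusted p = 0.00527). Pet100 rose in RA-sufficient PL by 1.44 (adjusted p = 0.0011). Coa7 fell by 1.65 (adjusted p = 0.00014) and 1.10 (adjusted p = 0.00355), and Cox19 by 1.73 (adjusted p = 0.000274) and 1.64 (adjusted p = 0.00397). Lrpprc, which stabilizes mitochondrial messenger RNAs, fell in RA-sufficient PL from 186 to 208 CPM in In/B to 93.1 to 96.9 CPM (0.99 on the log2 scale, adjusted p = 8.78e-05), and measured 155, 145 and 80.8 CPM in RA-deficient PL (adjusted p = 0.143). Replicate 3 of RA-deficient PL was also its lowest library in spermatogonial marker sums, whose part in the Lrpprc values was not tested. For complex V, of 3 factors, Atpaf2 alone passed, higher in both (1.36, adjusted p = 0.00198, and 1.06, adjusted p = 0.0312, the latter not when any In/B library was left out, 0.0691 to 0.115, or with library size only, 0.091). No assembly factor passed between the PL groups.

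Of 13 genes for ubiquinone synthesis, 1 passed as higher (7.69%) and 4 as lower (30.8%) in RA-sufficient PL. In RA-deficient PL 1 (7.69%) and 3 (23.1%) did. Among all genes, 33.8% passed as higher and 31.2% as lower in RA-sufficient PL, and 18.4% and 18.3% in RA-deficient PL. Coq7, a hydroxylase of the pathway, fell by 1.67 (adjusted p = 0.000265) and 1.39 (adjusted p = 0.000912). Pdss2 rose in RA-sufficient PL by 0.73 (adjusted p = 0.0142), not without In/B replicate 3 (0.0504) or RA-sufficient PL replicate 2 (0.0643). Coq5 fell in RA-deficient PL by 0.71 (adjusted p = 0.0222), not without In/B replicate 2 or 3 (0.0819 and 0.0901). Coq8a fell in RA-sufficient PL by 0.98 (adjusted p = 0.000304), and Coq8b rose in RA-deficient PL by 1.53 (adjusted p = 0.00836). Coq8a and Coq8b were higher in RA-deficient than in RA-sufficient PL (0.78, adjusted p = 0.0107, and 1.16, adjusted p = 0.046), Coq8a not without RA-sufficient PL replicate 2 (0.055) and Coq8b not without any library except RA-deficient PL replicate 3 (0.109 to 0.139) or with library size only (0.0821). Of 8 further genes whose enzymes feed electrons to ubiquinone, 2 were higher (25%) and 3 lower (37.5%) in RA-sufficient PL, and 0 and 2 (25%) in RA-deficient PL. Chdh, choline dehydrogenase, measured 0.112, 1.14 and 0.618 CPM in In/B, 22.1, 17.5 and 12.7 CPM in RA-sufficient PL and 0.122, 0 and 6.06 CPM in RA-deficient PL, a rise of 4.77 (SE 0.59, adjusted p = 0.000177) in RA-sufficient PL. Gpd2, the mitochondrial glycerol phosphate dehydrogenase, rose there by 2.48 (adjusted p = 0.00169), from at most 1.66 CPM in In/B to 4.46 to 10.7 CPM, a call lost in a fit of all 9 libraries (0.073). RA-sufficient PL stood above both other groups in these genes, and Sertoli markers were at their highest there, with their part in these rises not tested. Prodh, proline dehydrogenase, fell by 2.55 (adjusted p = 0.000118) in RA-sufficient PL. Etfb, of the electron transfer flavoprotein, fell by 1.62 (adjusted p = 0.000154) and 1.08 (adjusted p = 0.0137), the latter not without In/B replicate 2 or 3 (0.0634 and 0.0623). Etfdh, which takes the electrons on from it, fell in RA-deficient PL by 0.56 (adjusted p = 0.0436), not without any In/B library or RA-deficient PL replicate 2 (0.0876 to 0.133). Of 11 genes that shape the cristae, where the respiratory chain sits, 2 were higher (18.2%) and 4 lower (36.4%) in either PL group. Chchd6 rose by 1.48 (adjusted p = 6.21e-05) and 1.76 (adjusted p = 0.000471), and its relative Chchd3 fell by 0.84 (adjusted p = 0.00075) and 0.95 (adjusted p = 0.0017). Samm50 fell in RA-sufficient PL by 0.97 (adjusted p = 0.000173), and 2410015M20Rik in RA-deficient PL by 1.26 (adjusted p = 0.00325). Opa1, which fuses inner membranes, rose in RA-sufficient PL by 0.30 (adjusted p = 0.0486), a call lost when any library except RA-sufficient PL replicate 1 was left out (0.0773 to 0.168), with library size only (0.0525), with no filter (0.114), by DESeq2 (0.0954) and in a fit of all 9 libraries (0.225). Mtx1 measured 84.9, 70.8 and 74.1 CPM in In/B, 76.1, 72 and 75.8 CPM in RA-sufficient PL and 101, 103 and 116 CPM in RA-deficient PL. It was higher in RA-deficient PL than in In/B (0.61, adjusted p = 0.0118) and than in RA-sufficient PL (0.48, adjusted p = 0.0329). The first call was lost without In/B replicate 2 or 3 (0.0707 and 0.0592), the second without any library except RA-deficient PL replicate 3 (0.0518 to 0.133), and both with library size only (0.29 and 0.30, adjusted p = 0.149 and 0.126).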

How the data were processed

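Total RNA from sorted germ cells was sequenced as single-end reads (75 bases). The authors trimmed reads with cutadapt (1.9), mapped them to mm9 with STAR (2.5.2b) and deposited whole-number counts per gene from featureCounts, in a table of 24505 genes. The annotation and the strand setting of the counting are not given in the sources used here, so overlapping genes may share counts.

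Groups followed the sample labels, with 3 libraries each. Independent cell preparations are described for the study, but the labels do not tie a library to one, so p-values measure the spread between these libraries, which may be technical. Libraries of 12612959 to 27042274 counts give precision that limits genes of low level, for which 3 counts correspond to 0.111 to 0.221 CPM after scaling. The members and gene lists were chosen with earlier results of these data known.

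Each comparison was fitted to its 6 libraries with edgeR (4.0.16, R 4.3.3) by the quasi-likelihood test with TMM scaling and the edgeR filter on low counts. P-values were adjusted by Benjamini-Hochberg over all genes tested. Standard errors were taken as the log2 fold change over the square root of F. The fit was tested on simulated data. Named were tissue isoforms and partners, core subunits, X-linked members, the 2 members per complex with the smallest p (mean of at least 10 CPM) and that with the largest change in each comparison, and the 2 genes with the smallest p per direction of each further list, together with Pdha1, Pdha2, Slc25a4, Slc25a5, Slc25a31, Ppargc1a and Tfam. Ndufa10, Ndufc1, Ndufv2, Ndufb3, Ndufa8, Uqcr10, Nrf1 and Gabpb1, where they fall outside this rule, were named after their values were seen. Genes withheld from the text are not reported here by name, and stay in the counts, sums and medians. Gene positions come from GENCODE M1 (mm9) and promoters from RefSeq. For each member, stretches of 75 bases of its exons were searched in the rest of mm9. Alternatives were other scalings (RLE, library size only) and filters (no filter, or 50 counts on average), a replicate block, 1 fit of all 9 libraries, DESeq2 (1.42.0), thresholds without the fold or at an adjusted p of 0.01, and leaving out single libraries.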

Additional observations from a re-analysis of the deposited data

Results flagged for a closer look

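The direct comparison of RA-deficient with RA-sufficient PL showed differences past the test (edgeR, adjusted p below 0.05) in 8 members and in 11 named genes of the further lists. Values are log2 fold changes, RA-deficient minus RA-sufficient PL. Among members, Cycs (-1.79), Ndufv3 (-1.36), Cox7a2 (-1.05), Ndufb3 (-0.77) and Atp5e (-0.64) were lower and Atp5d (1.09), Ndufb7 (1.02) and Uqcr11 (0.88) higher. Among carriers and TCA cycle genes, Slc25a4 (-2.70), Slc25a5 (-1.80) and Suclg1 (-1.33) were lower, and Slc25a31 (0.46) was higher. Regulators that were higher were Pprc1 (1.33), Nrf1 (0.70), Gabpb2 (0.56) and Gabpb1 (0.50). Ubiquinone synthesis genes Coq8b (1.16) and Coq8a (0.78) were higher, as was Mtx1 (0.48), which takes part in joining the inner and outer mitochondrial membranes, though not with library size only (0.30, adjusted p = 0.126) or without any library except RA-deficient PL replicate 3 (0.0518 to 0.133). Sertoli marker sums (2772 to 3621 CPM in RA-sufficient PL, 290 to 512 CPM in RA-deficient PL) and spermatogonial marker sums (702 to 799 CPM, and 1226 to 3078 CPM) also separated the PL groups. So did peritubular and stromal marker sums (54.9 to 60.3 CPM, and 94.3 to 112 CPM). The part of these markers in the differences was not tested.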

How the results depend on the processing

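RLE scaling changed no call of a named gene, and neither it nor the restriction to members with under 20% of stretches found elsewhere (added after seeing the data) moved a count of members beyond the limit of 1.5 times. Scaling by library size only moved the median of all genes by -0.31 from In/B to RA-deficient PL and by -0.27 between the PL groups, and the members' median from In/B to RA-deficient PL from -0.49 to -0.80, with a mean RA-deficient sum of 4723 CPM in place of 5181.

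From In/B to RA-sufficient PL, the adjusted p alone, with no fold threshold, gave 9 members higher and 41 lower. From In/B to RA-deficient PL it gave 6 and 36. There, members passing as higher numbered 3 with library size only, 3 with the replicate block, 2 at an adjusted p of at most 0.01 and 12 with RA-deficient PL replicate 3 alone (added after seeing the data), and those called higher 1 with the block, 1 at the stricter threshold and 4 with replicate 3 alone. Members passing as lower numbered 18 at the stricter threshold. With each library left out they ranged from 20 to 37, those passing as higher from 2 to 10 and those called higher from 1 to 4. Between the PL groups, members passing as higher and lower numbered 1 and 10 with library size only, 1 and 3 with the block, 1 and 2 at the stricter threshold, 7 and 8 with all 9 libraries in 1 fit, 7 and 10 with DESeq2 and 0 and 3 with replicate 3 alone. Passing as higher were 5 at a mean of at least 50 counts, and as lower 3 with no filter. Those called higher and lower numbered 0 and 5 with library size only, those called higher 1 with the block, 1 at the stricter threshold and 0 with replicate 3 alone, and those called lower 5 by adjusted p alone. Leaving out each library gave 1 to 11 passing as higher and 2 to 12 as lower, and 0 to 2 called higher and 1 to 7 lower. Shares of all genes under these alternatives are not given here.

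Correlations of same-numbered deviations from group means were -0.25, -0.15 and -0.15 (In/B with RA-sufficient PL), 0.12, -0.10 and 0.11 (In/B with RA-deficient PL) and -0.06, 0.03 and -0.08 (PL groups). Differently numbered libraries gave -0.18 to 0.20. With means of 3 libraries these values constrain each other, so they cannot decide whether replicate numbers pair the samples.

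Signs turned in values that did not pass with all libraries. From In/B to RA-sufficient PL, Cox6b2 was -0.039 with the block, and Pdha1 -0.0080 with library size only, -0.019 with no filter, -0.035 in 1 fit and -0.0068 by DESeq2. With libraries left out, Cox5a ranged from -0.020 to 0.26, Cox6b2 from -0.47 to 0.30, Cyct from -1.03 to 0.0035, Ndufv1 from -0.087 to 0.18 and Pdha1 from -0.058 to 0.071. From In/B to RA-deficient PL, Cox8c was -0.90 with the block, Pdha1 0.00080 at a mean of at least 50 counts, Slc25a4 -0.058 with library size only, and Uqcrc1 -0.30 with library size only, -0.0074 with no filter and -0.11 in 1 fit. With libraries left out, Cox7b2 ranged from -0.61 to 0.15, Cox8c from -2.06 to 1.04, Pdha1 from -0.20 to 0.17, Uqcrc1 from -0.089 to 0.15 and Uqcrfs1 from -0.27 to 0.025. Between the PL groups with library size only, Cox4i1 was -0.073, Cox5a -0.069, Ndufa1 -0.095, Ndufb11 -0.17, Ndufs1 -0.052 and Sdhb -0.13, and Ndufb11 was -0.012 with the block. With libraries left out, Cox5a ranged from -0.091 to 0.31, Cox8a from -0.43 to 0.11, Ndufa1 from -0.29 to 0.39, Ndufb11 from -0.27 to 0.17, Pdha1 from -0.27 to 0.087, Sdha from -0.18 to 0.043, Sdhb from -0.055 to 0.13 and Sdhc from -0.026 to 0.36. The cause was not tested. Depth limits genes near the floor of 3 counts, such as Esrrg and Cox4i2.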
